A study of Rattus norvegicus with 8 samples.

Results

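The genes described here are 10 ligands and receptors of the VEGF and angiopoietin families, chosen by name from the 32623 rat Ensembl genes in the count files: the ligands Vegfa, Vegfb, Vegfc, Angpt1 and Angpt2, and the receptors Flt1, Kdr, Flt4, Tek and Tie1. They were measured by RNA sequencing in the outflow vein of an arteriovenous fistula (AVF), in which the epigastric vein of a Sprague Dawley rat was joined to the femoral artery and wrapped with a bilayer polymer scaffold. In the BAPN group (3 females and 1 male) the scaffold released BAPN, β-aminopropionitrile, which blocks lysyl oxidases, the enzymes that crosslink the collagen and elastin of the vessel wall. In the vehicle group (2 females and 2 males) the same surgery was done and the same kind of scaffold was placed without the drug. All 8 veins were harvested on day 21, 1 library was made per rat, and the question put to these genes was whether lysyl oxidase inhibition around the vein went with another level of the signals that build and stabilize vessels. Veins of rats without an AVF or without a scaffold are not part of the comparison.

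VEGF proteins are secreted growth factors that act on receptor tyrosine kinases of endothelial cells. Kdr (VEGFR-2) carries most of the growth and permeability signal of Vegfa, Flt1 (VEGFR-1) binds Vegfa and Vegfb tightly and can act as a decoy, and Flt4 (VEGFR-3) is the receptor for Vegfc, best known in lymphatic vessels. Angpt1, made mainly by perivascular cells, activates the receptor Tek (Tie2) and keeps the endothelium quiet, Angpt2 is released by endothelial cells and can oppose it, and Tie1 is an orphan partner of Tek.

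Levels are given as CPM (read counts scaled to a common library total) with TMM scaling, a factor per library that evens out composition. CPM is not corrected for gene length, so levels are compared between libraries and not between genes. A difference is the log2 fold change of BAPN against vehicle from edgeR's quasi-likelihood test with its standard error (SE) from limma-voom, and a gene is called changed where the Benjamini-Hochberg adjusted p over all 11682 tested genes (FDR) is below 0.05. Total counts were 45039451 to 52241007 in the BAPN group and 19548203 to 22442050 in the vehicle group. The groups did not overlap in depth (a factor of 2.01 between the nearest libraries), which cannot be told apart from the treatment. Counts thinned to equal totals gave a log2 fold change of -1.23 for Tek, against -1.24. Thinning leaves the expected fold change as it was, so it cannot separate depth from treatment. All 10 genes passed the filter on low values, a base mean of at least 100 reads.

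Tek was the 1 gene of the 10 that changed, and it was lower in the BAPN group. Over all tested genes 16.8% were called in either direction, 9.25% lower and 7.5% higher, so 1 of 10 is near the share over all genes. 7 of the 10 had a log2 fold change below 0 and 3 above, with a median of -0.42 beside 0.02 over all tested genes. DESeq2 also called 1 of the 10, where it called 27.4% of all tested genes. Tek was likewise the 1 gene whose groups did not overlap, a separation seen in 24.7% of tested genes.

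**Figure D1:**
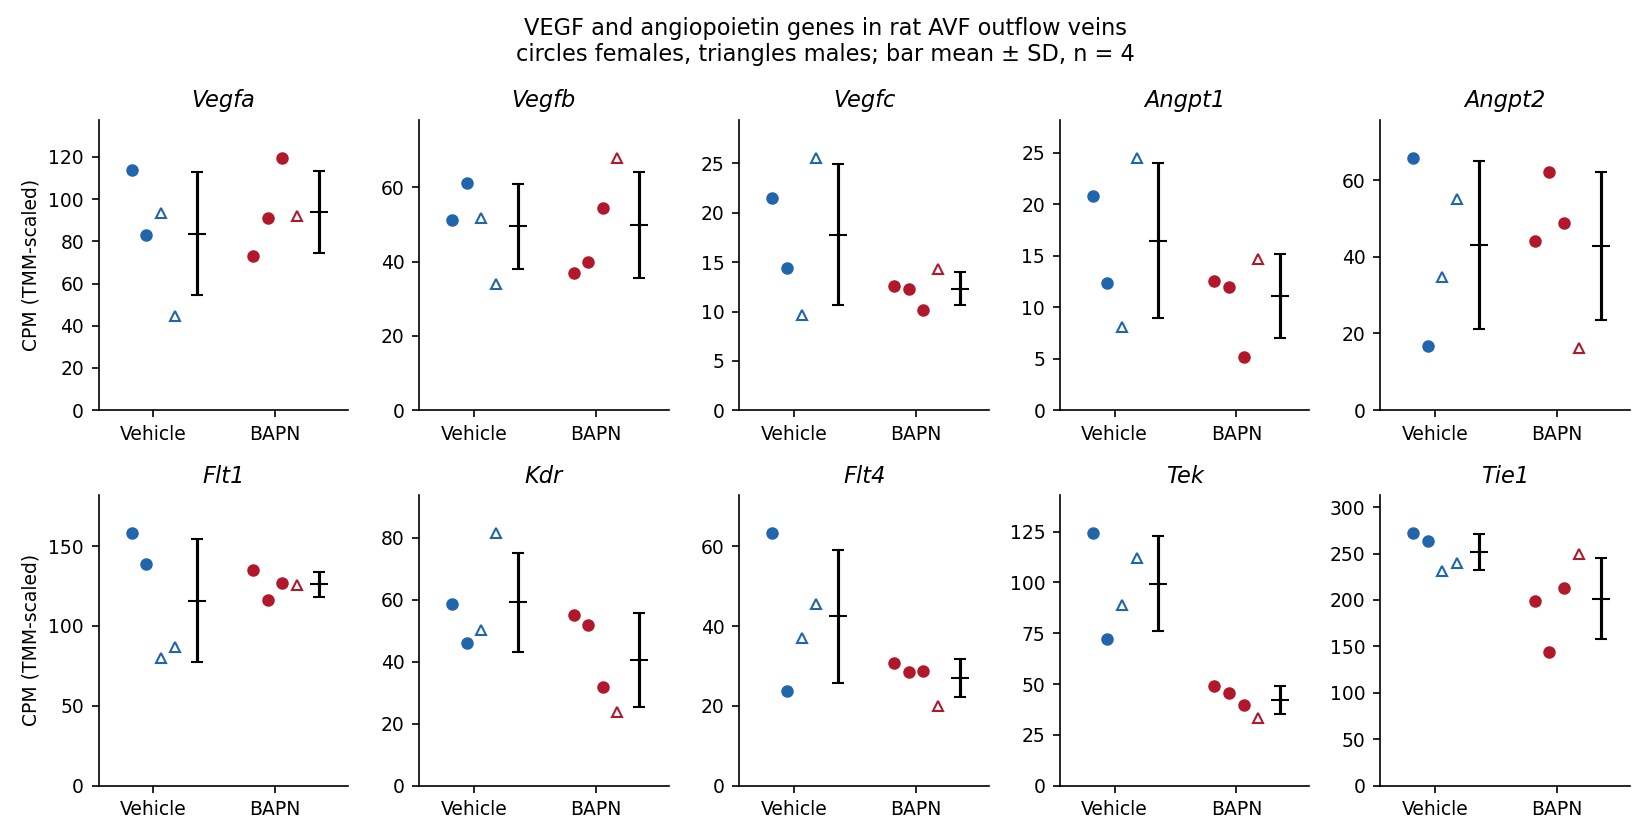
Level of the 5 ligands (top row) and 5 receptors (bottom row) in each library, in CPM with TMM scaling, from 0. Circles are females and triangles are males, and the bar to the right of each group is the mean ± SD (n = 4 rats). The groups overlap for 9 genes, while for Tek all BAPN rats lie at or under 49.0 CPM and all vehicle rats at or over 72.2 CPM.

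Tek encodes the receptor on which both angiopoietins converge. It stood at 49.0, 45.8, 39.8 and 33.5 CPM in BAPN 1 to 4 and at 124, 72.2, 88.8 and 112 CPM in Vehicle 1 to 4. Every BAPN vein was below every vehicle vein. The means were 42.0 ± 6.82 and 99.3 ± 23.4 CPM (SD, n = 4 each), a BAPN to vehicle ratio of 0.423. The log2 fold change was -1.24 (SE 0.19), with an FDR of 0.0089 by edgeR and 2.5e-07 by DESeq2. Of all tested genes 4.03% had a larger change in either direction. Tek passed the threshold in each of the 8 fits that left out 1 rat (log2 fold change -1.37 to -1.12, FDR 0.0053 to 0.031). Within the females (3 BAPN against 2 vehicle) the difference was -1.13 and its FDR 0.078. The 1 BAPN male was at 33.5 CPM and the vehicle males averaged 100.4 CPM.

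Tie1, the partner receptor of Tek, was at 199, 144, 213 and 249 CPM in BAPN 1 to 4 and at 272, 263, 231 and 240 CPM in Vehicle 1 to 4. The BAPN male was above both vehicle males, while the 3 BAPN females were below both vehicle females. The log2 fold change was -0.32 (SE 0.16, FDR 0.198), and its 95% interval from limma-voom ran from -0.71 to 0.02. It was -0.20 without BAPN 2 and -0.53 in females alone. The receptor pair therefore had fold changes of different size, and the difference between them was not tested.

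The angiopoietin ligands did not pass the test. Angpt1, the activating ligand, ranged from 5.19 to 14.7 CPM in the BAPN group and from 8.08 to 24.6 CPM in the vehicle group (log2 fold change -0.57, SE 0.41, FDR 0.320; -0.31 without Vehicle 4 and -0.33 without BAPN 3). Angpt2 was at 44.2, 62.0, 48.8 and 16.2 CPM in BAPN 1 to 4 and at 65.9, 16.7, 34.7 and 54.9 CPM in Vehicle 1 to 4. The lowest veins of the groups were BAPN 4 and Vehicle 2, and the next lowest were BAPN 1 at 44.2 CPM and Vehicle 3 at 34.7 CPM. The Angpt2 log2 fold change was -0.01 (SE 0.50, FDR 0.991) with a wide interval, -1.11 to 1.12, which takes in a change by a factor of 2 in either direction. The log2 ratio of Angpt2 to Angpt1, in which a higher value means more of the opposing ligand relative to the activating one, was 1.89 ± 1.30 in the BAPN group and 1.33 ± 0.72 in the vehicle group (SD, n = 4), a difference smaller than the spread.

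Of the VEGF ligands, Vegfa, the main growth factor for blood vessels, was at 73.0, 90.9, 119.7 and 92.1 CPM in BAPN 1 to 4 and at 113.7, 82.9, 93.6 and 44.5 CPM in Vehicle 1 to 4. The ranges overlapped, and Vehicle 4 was the lowest of the 8. Its log2 fold change was 0.17 (SE 0.28, FDR 0.672, interval -0.40 to 0.85). Vegfb, the ligand of Flt1, averaged 49.9 ± 14.3 CPM in the BAPN group and 49.5 ± 11.4 CPM in the vehicle group (SD, n = 4; log2 fold change 0.01, SE 0.23, FDR 0.978). Vegfc, the lymphatic growth factor, ranged from 10.1 to 14.3 CPM in the BAPN group and from 9.64 to 25.6 CPM in the vehicle group. Vehicle 1, Vehicle 2 and Vehicle 4 were above every BAPN vein for Vegfc, Vehicle 2 only just, and Vehicle 3 was below all of them (log2 fold change -0.53, SE 0.27, FDR 0.204). It was -0.30 without Vehicle 4 and -0.74 (FDR 0.062) without Vehicle 3.

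Of the VEGF receptors, Flt4 came nearest to the threshold. Flt4 was at 30.8, 28.5, 28.7 and 19.9 CPM in BAPN 1 to 4 and at 63.3, 23.8, 36.9 and 45.6 CPM in Vehicle 1 to 4. Vehicle 2 lay within the BAPN range and the other 3 vehicle veins were above it. The log2 fold change was -0.65 (SE 0.27, unadjusted p 0.038, FDR 0.118). Without Vehicle 2 it was -0.85 with an FDR of 0.031, and without Vehicle 1 it was -0.39 (FDR 0.303), so that the size and the call depended on single vehicle veins.

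Kdr, the main signaling receptor of Vegfa, was at 55.0, 51.7, 31.9 and 23.9 CPM in BAPN 1 to 4 and at 58.8, 46.1, 50.1 and 81.6 CPM in Vehicle 1 to 4. A pair of BAPN veins lay within the vehicle range and the other pair, BAPN 3 and BAPN 4, below it (log2 fold change -0.54, SE 0.29, FDR 0.197, interval -1.23 to 0.06). It was -0.35 without Vehicle 4 and -0.18 in females alone. Flt1 was at 135, 116, 127 and 126 CPM in BAPN 1 to 4 and at 158, 139, 79.8 and 87.0 CPM in Vehicle 1 to 4. The BAPN veins held Flt1 in a narrow band, with a coefficient of variation of 6.04% against 33.2% in the vehicle group, where both females were above the band and both males below it. The Flt1 log2 fold change was 0.12 (SE 0.23, FDR 0.709).

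**Figure D2:**
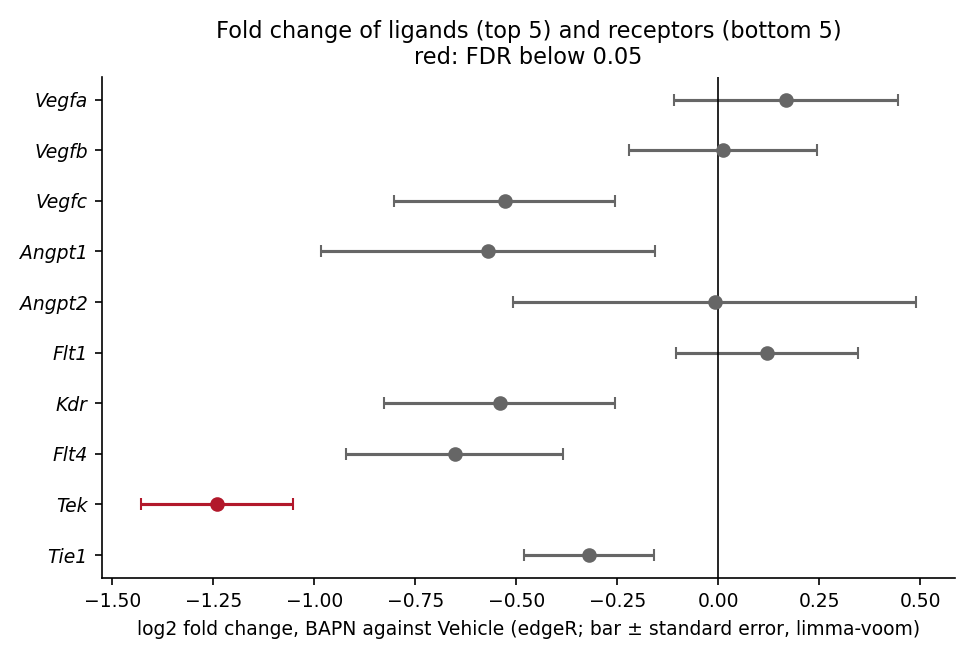
Log2 fold change of BAPN against vehicle for each gene (x axis, edgeR), with bars of ± 1 standard error from limma-voom (n = 4 rats a group). The red point is Tek at -1.24, the gene with an FDR below 0.05, and the grey points lie between -0.65 (Flt4) and 0.17 (Vegfa).

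The receptors are known chiefly from endothelial cells, so the levels were set beside markers of that cell type. In bulk tissue, fewer cells of a type and less RNA per cell cannot be told apart. Of 16 pan-endothelial markers listed, 15 were in the files and 14 were tested. All 14 had a log2 fold change below 0 (median -0.75), and 6 of 14 fell, beside 9.25% of all tested genes. Their summed level was 527 to 1000 CPM in the BAPN veins and 1035 to 2029 CPM in the vehicle veins. That separation rested on Vwf: without it the sums overlapped (468 to 898 and 766 to 1448 CPM), as did the mean log2 CPM of the 14 markers, at 5.69 in BAPN 1 and 5.58 in Vehicle 2. Among the 6 that fell were Vwf, the clotting factor of endothelial granules (-1.99, FDR 0.039), S1pr1, a sphingolipid receptor (-0.74, FDR 0.019), and the adhesion and matrix proteins Esam (-0.94, FDR 0.030) and Mmrn2 (-1.13, FDR 0.024). Cdh5, VE-cadherin, was 111 ± 35.4 CPM in the BAPN group and 217 ± 93.1 CPM in the vehicle group (SD, n = 4; FDR 0.074). Vwf was highest in Vehicle 1, at 768 CPM. Without Vehicle 1 edgeR called 0 of the 14, with 8 of them under an unadjusted p of 0.05, as with all libraries. That fit called 397 of the 11682 tested genes, against 1957 with all libraries. The count for the 14 markers was 3 without BAPN 2 or Vehicle 3, 2 without BAPN 3 or Vehicle 4 and 1 without BAPN 4. It was 4 without BAPN 1 and 8 without Vehicle 2. DESeq2 on all libraries called 8 of the 14, beside 27.4% of all tested genes. With sex, which was not balanced between the groups, as a covariate 3 were called, and 0 with the replicate number as a block and in females alone (7 and 6 under an unadjusted p of 0.05). Robo4 had 1 read in 1 library and none in the others, and Pecam1 was not analysed here.

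The level of each gene was then taken relative to those markers, as log2 CPM minus the mean log2 CPM of the 14 markers in the same library, a description with no test. On this scale Tek was between -0.10 and 0.35 in the BAPN veins and between 0.41 and 0.60 in the vehicle veins. The groups still did not overlap, also without Vwf among the markers (-0.02 to 0.44 and 0.48 to 0.85), and the difference of their means was -0.43, beside a log2 fold change of -1.24 on the CPM scale. Tek was the 1 gene of the 10 with a lower mean in the BAPN group on this scale. Relative to the markers, Flt1 was 0.98 higher, Vegfa 1.02 higher, Angpt2 0.81 higher and Tie1 0.45 higher in the BAPN group, and Kdr and Flt4 were each 0.21 higher. For Flt1, Vegfa, Angpt2, Tie1, Kdr and Flt4 alike, the ranges of the groups overlapped. The part of the endothelial markers in the lower Tek level was not tested.

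**Figure D3:**
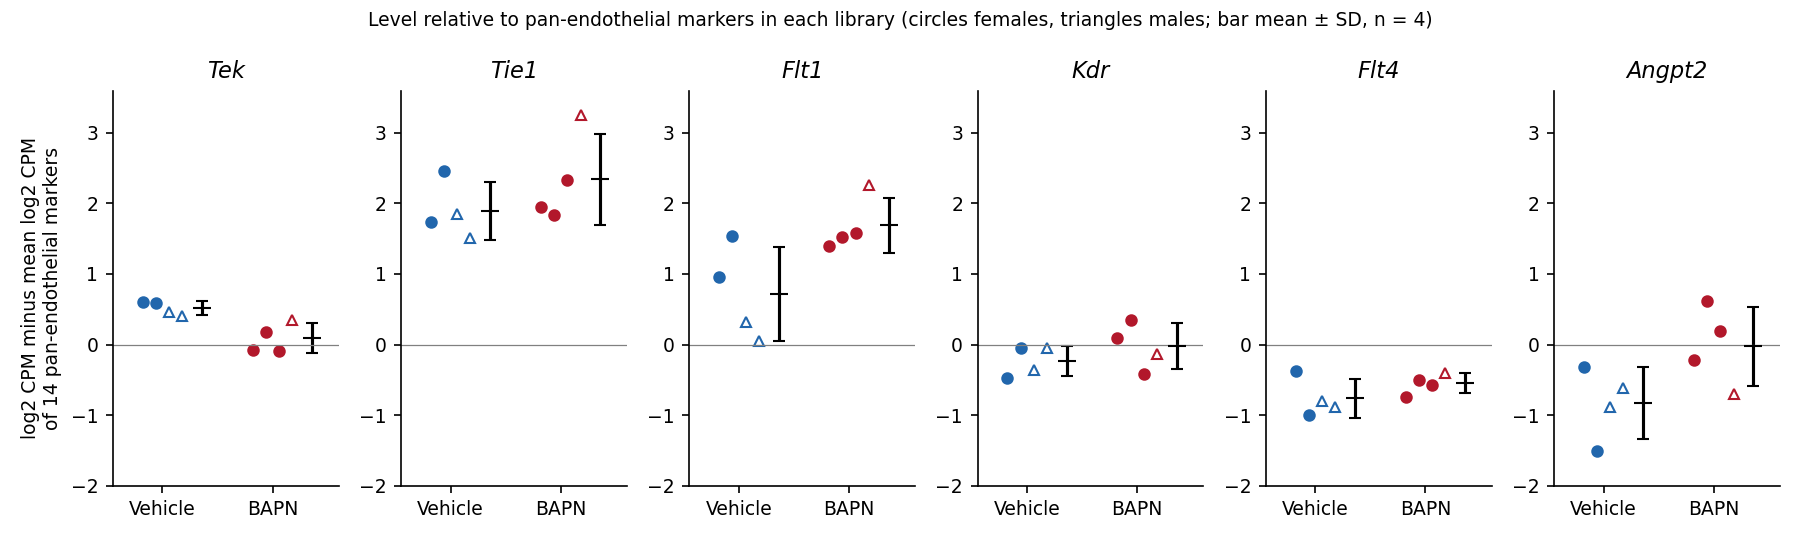
Log2 CPM of 5 receptors and Angpt2 minus the mean log2 CPM of 14 pan-endothelial markers in each library, with circles for females, triangles for males and bars for the mean ± SD (n = 4). Tek is the gene shown here that is lower in the BAPN group relative to the markers (BAPN -0.10 to 0.35, vehicle 0.41 to 0.60).

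Markers of the cells that wrap vessels were set beside these. Of 6 pericyte markers 4 fell, beside 9.25% of all tested genes: Notch3 (-1.90, FDR 0.0089), Abcc9 (-1.37, FDR 0.012), Rgs5 (-1.31, FDR 0.030) and Kcnj8 (-0.88, FDR 0.014), and the summed level was 551 to 822 CPM in BAPN and 911 to 1960 CPM in vehicle veins. Pdgfrb, the receptor that defines this lineage, was 283 ± 59.5 and 471 ± 157 CPM (SD, n = 4; FDR 0.071). Of 6 smooth muscle markers 4 fell, again beside 9.25% of all tested genes: Myh11 (-1.60, FDR 0.015), Des (-0.68, FDR 0.029), Cnn1 (-1.60, FDR 0.029) and Smtn (-0.95, FDR 0.025). The smooth muscle sum overlapped, at 1630 to 4153 CPM in BAPN and 3110 to 5852 CPM in vehicle veins, and the abundant markers Acta2 (-0.75, FDR 0.260) and Tagln (-0.64, FDR 0.217) did not pass. The smooth muscle count was 1 without BAPN 3, BAPN 4 or Vehicle 3, and 2 without BAPN 1 or Vehicle 4. It was 1 with sex as a covariate and 2 with the replicate number as a block. In each of these fits 4 smooth muscle markers were under an unadjusted p of 0.05 by edgeR, as with all libraries. Those fits called 556 (block) to 1329 (without BAPN 1) of the 11682 tested genes, against 1957 with all libraries. The pericyte count was 3 to 5 with 1 rat left out, 3 with sex as a covariate and 2 with the block. In females alone edgeR called 1 pericyte marker and 0 smooth muscle markers (2 under an unadjusted p of 0.05). Of 6 lymphatic markers 1 fell: Prox1, the transcription factor that specifies lymphatic endothelium, was at 2.41 to 4.99 CPM in BAPN and 7.21 to 19.9 CPM in vehicle veins (-2.05, FDR 0.012). The lymphatic count was 1 in each fit that left out 1 rat, with sex as a covariate and with the replicate number as a block, and 0 by edgeR in females alone (2 under an unadjusted p of 0.05). Lyve1, found on lymphatic endothelium and on some macrophages, was 86.0 ± 20.0 CPM and 78.3 ± 20.5 CPM (SD, n = 4; FDR 0.671). Plin1, which coats the lipid droplets of fat cells, was the 1 of 4 tested adipocyte markers that fell (-2.13, FDR 0.044), although Vehicle 4, at 4.54 CPM, was below every BAPN vein (4.91 to 10.9 CPM). Without Vehicle 4 edgeR called 2 of the 4 adipocyte markers, and 0 without any 1 of the other libraries or with the replicate number as a block (2 to 3 under an unadjusted p of 0.05). DESeq2 called 3 of the 4, beside 27.4% of all tested genes. The adipocyte count was 3 with sex as a covariate and 2 in females alone. By edgeR 0 of 8 macrophage markers, 0 of 6 fibroblast markers and 0 of 2 tested skeletal muscle markers were called, with 0, 2 and 1 under an unadjusted p of 0.05 and 0, 2 and 1 called by DESeq2. The keratinocyte markers summed to at most 10.9 CPM in any vein. The part of these cell types in the levels of Tek and Flt4 was not tested.

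Other proteins that bind or tune these receptors were taken from a list of 16, of which 13 were tested. 3 of 13 fell, beside 9.25% of all tested genes, and the median log2 fold change was -0.49 (-0.79 without BAPN 4, and -0.65 to -0.33 without any other 1 rat). Ptprb, VE-PTP, the phosphatase that keeps Tek inactive at endothelial junctions, was at 62.9, 37.0, 19.3 and 25.4 CPM in BAPN 1 to 4 and at 142, 59.1, 55.9 and 141 CPM in Vehicle 1 to 4 (-1.46, SE 0.43, FDR 0.048). BAPN 1 lay above Vehicle 2 and Vehicle 3. Vash1, vasohibin, an inhibitor of vessel growth made by endothelial cells, was 21.6 ± 3.61 CPM and 42.6 ± 3.62 CPM (SD, n = 4), with no overlap (-0.98, SE 0.14, FDR 0.0079). Aplnr, the apelin receptor, was 23.1 ± 7.43 CPM and 62.8 ± 33.2 CPM (SD, n = 4), with overlap (-1.44, SE 0.38, FDR 0.034). The further ligands Pgf (0.24, FDR 0.669), Vegfd (-0.30, FDR 0.322) and Angpt4 (0.34, FDR 0.523) did not pass. The co-receptor Nrp1 (-0.49) and its relative Nrp2 (-0.30) did not pass.

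Downstream of the receptors 20 signaling genes were listed and tested. Of these 3 fell and 1 rose (median -0.08, and -0.14 to -0.03 with 1 rat left out). These 4 of 20 are near the 16.8% called over all tested genes. Foxo1, the transcription factor that Angpt1 and Tek signaling holds out of the nucleus through Akt, was at 20.7, 17.6, 11.1 and 11.1 CPM in BAPN 1 to 4 and at 50.2, 36.8, 28.0 and 36.9 CPM in Vehicle 1 to 4. Every BAPN vein was below every vehicle vein (-1.33, SE 0.25, FDR 0.015). Nos3, endothelial nitric oxide synthase, was 21.5 ± 5.57 CPM and 44.7 ± 14.97 CPM (SD, n = 4), again with no overlap (-1.06, SE 0.27, FDR 0.030). Pik3r1, the regulatory subunit of PI3-kinase, fell by 0.70 on the log2 scale (FDR 0.037). Nck1, an adaptor between receptor kinases and actin, rose by 0.41 (FDR 0.041), from 60.7 ± 4.73 to 80.7 ± 10.1 CPM (SD, n = 4). The kinase Akt1 (-0.03) and the GTPase Rac1 (-0.08) did not pass.

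Oxygen sensing was listed because low oxygen is the best known inducer of Vegfa. Of 16 tested genes 2 fell and 1 rose, again near the 16.8% over all tested genes, and the median of 0.40 was 0.04 without BAPN 4, 0.23 without Vehicle 4 and 0.28 to 0.58 without any other 1 rat. Epas1, HIF-2α, the oxygen-regulated factor typical of endothelium, was 174 ± 45.6 CPM and 347.7 ± 96.6 CPM (SD, n = 4; -1.001, SE 0.25, FDR 0.029), and its highest BAPN and lowest vehicle values were both 232 CPM after rounding. Arnt, the partner subunit of the HIF factors, was 36.6 ± 8.47 CPM and 59.4 ± 8.85 CPM (SD, n = 4; -0.70, SE 0.19, FDR 0.034). Bnip3, a mitophagy gene induced by low oxygen, was at 66.5, 85.3, 144 and 193 CPM in BAPN 1 to 4 and at 72.8, 48.3, 54.4 and 29.9 CPM in Vehicle 1 to 4. BAPN 1 lay below Vehicle 1 and the other 3 BAPN veins above all vehicle veins (1.25, SE 0.36, FDR 0.043). Hif1a (-0.10) and the glucose transporter Slc2a1 (0.65) did not pass.

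How far these calls depended on single rats and on the model differed between genes. Tek, Vash1 and Foxo1 were called in each of the 8 fits that left out 1 library, with sex as a covariate and with the replicate number as a block. Ptprb, Aplnr, Pik3r1, Nck1, Epas1 and Arnt lost the call without any 1 of BAPN 2, 3 or 4 or Vehicle 1, 3 or 4, at FDR values of up to 0.122 (Ptprb without Vehicle 1). The fits without those libraries called 397 to 1224 of the 11682 tested genes, against 1957 with all libraries. Nos3 lost it without BAPN 3, BAPN 4, Vehicle 1 or Vehicle 4 (FDR up to 0.084), and Bnip3 without any library other than BAPN 1 (FDR up to 0.108). Without BAPN 2, BAPN 3, BAPN 4, Vehicle 1, Vehicle 3 or Vehicle 4 none of the oxygen genes was called by edgeR, with 5 to 8 of them under an unadjusted p of 0.05. Here too 397 to 1224 of all tested genes were called. With all libraries DESeq2 called 6 of the 16 oxygen genes, beside 27.4% of all tested genes. With sex as a covariate and also with the replicate number as a block, Ptprb, Aplnr, Pik3r1, Nck1, Epas1, Arnt and Bnip3 lost the call (FDR 0.051 to 0.143), and Nos3 lost it with the block (FDR 0.071). Ptprb also lost it with filterByExpr, without a filter, and with upper quartile or library total scaling (FDR 0.050 to 0.053), Pik3r1 and Nck1 without a filter (FDR 0.050 and 0.056), and Bnip3 with library totals (FDR 0.052). In females alone none of the 10 pathway genes was called by edgeR (FDR 0.075 to 0.264). None of these genes changed direction.

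**Figure D4:**
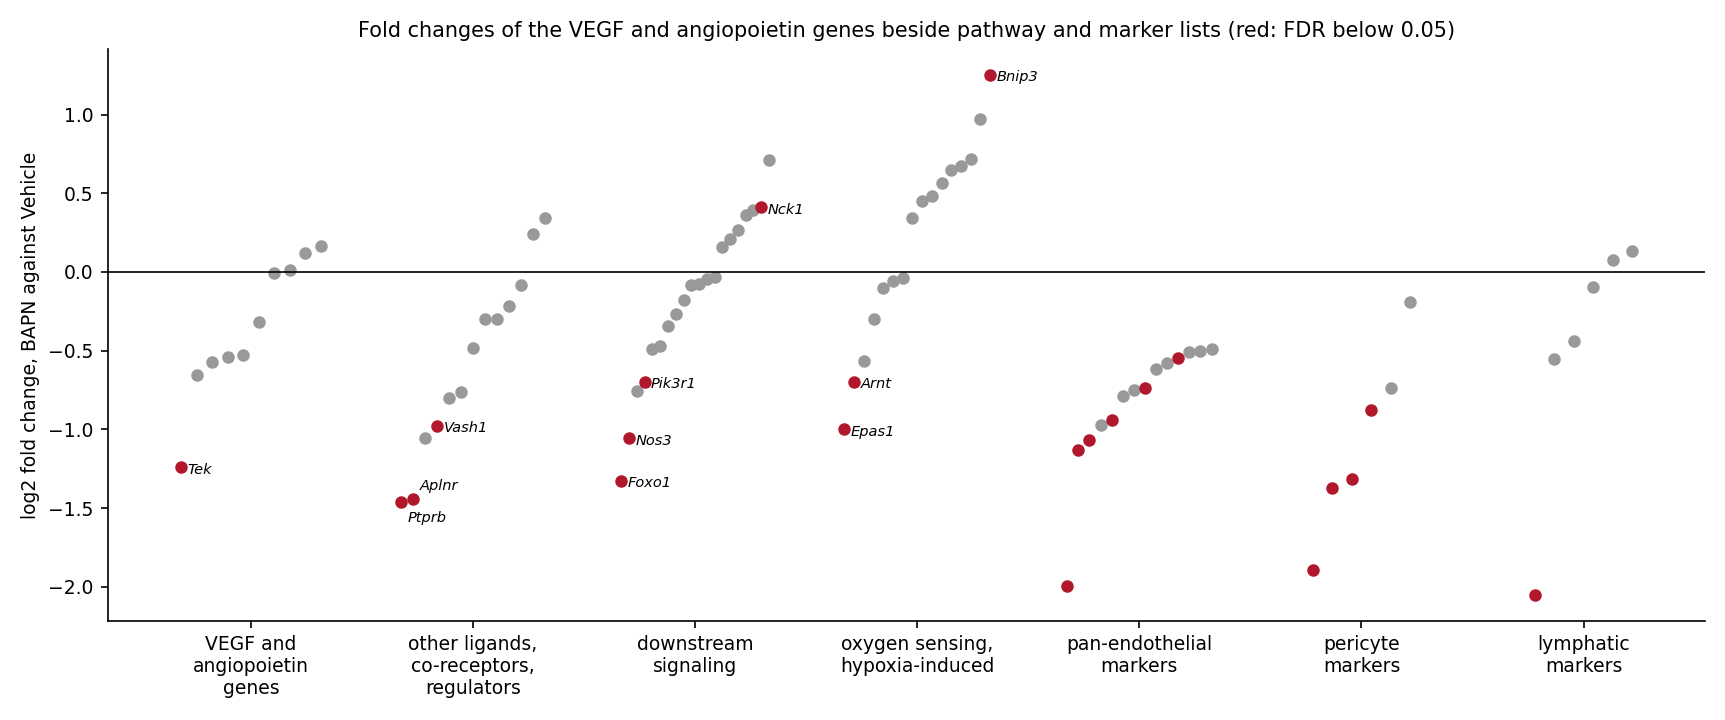
Log2 fold change (y axis) of each tested gene of the VEGF and angiopoietin families, of 3 pathway lists and of 3 marker lists (n = 4 rats a group). Red points have an FDR below 0.05 by edgeR, and named red points include Tek (-1.24), Ptprb (-1.46), Foxo1 (-1.33) and Bnip3 (1.25).

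Likeness between genes was described after each group's mean was subtracted from log2 CPM, so that the treatment difference itself does not enter, over 8 libraries. All genes were read in the same libraries, so the depth and cell makeup of a library enter each of its values. Tek varied most like Flt4 among the family (Pearson r 0.951, Spearman rho 0.976, n = 8) and also like Angpt2 (r 0.908, rho 0.810). Vegfb and Kdr ran opposite to each other (r -0.974, rho -0.976). The ligands Vegfc and Angpt1 varied together (r 0.899, rho 0.952). Over all tested genes with a symbol, the 5 most like Tek were Ltbp4, a matrix protein that binds latent TGF-β (r 0.978), Nos3 (r 0.969), Ptprn (r 0.966), Sytl4 (r 0.965) and Zfp606 (r 0.964). The 5 most like Kdr were P4htm, Gpr4, Tead4, Epn2 and Adgrg1 (r 0.972 to 0.985), and the 5 most like Vegfa were Polr2g, Abcd4, Sbspon, Col17a1 and Kri1 (r 0.938 to 0.973). Of these 15, Ltbp4 (-1.57, FDR 0.0086), Nos3 and Sbspon (-2.30, FDR 0.012) also fell and Polr2g rose (0.57, FDR 0.046), 4 of 15 beside 16.8% of all tested genes.

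The 250 bases before the gene start were searched for a pair of short motifs in RefSeq sequence of build GRCr8. The promoter set used here held 7 of the 10 genes. It had no entry for Tek, Angpt1 and Angpt2, nor for the pathway genes Ptprb and Aplnr. AGGAAG, a core bound by ETS factors, which are known for driving endothelial genes, was sought on both strands and occurred in 29.5% of 33469 promoters. 3 of the 7 genes held it, all of them receptors (Flt1, Flt4 and Tie1), and Kdr did not. ACGTG, the core of the hypoxia response element, occurred in 16.6% of promoters and in none of the 7 genes, Vegfa with its 2 listed starts included, which says only that these letters are not in this window. The matches are shown with 30 bases each to set the 3 receptors that hold AGGAAG side by side, followed by those of Vash1 and Nos3, which fell with Tek, and of Bnip3, the oxygen-regulated gene that rose. Capitals mark AGGAAG or its reverse complement CTTCCT, and in Bnip3 the ACGTG match on both strands. All are written 5′ to 3′ on the strand of the gene.
Flt1, chr12:12333246-12333275, plus strand: cgcccctccgggAGGAAGaagagggtaggt
Flt1, chr12:12333322-12333351, plus strand: aggtgccggggtAGGAAGtgggctggggaa
Flt4, chr10:34414594-34414623, plus strand: aaagtgggtgctCTTCCTtcccgggctgga
Tie1, chr5:137305025-137305054, minus strand: gcatcatttcctCTTCCTccccagcaccga
Vash1, chr6:112059905-112059934, plus strand: gcgggttgtaaaCTTCCTccgcagctctgc
Nos3, chr4:11706618-11706647, minus strand: accccctccctgCTTCCTaaggaaaaggcc
Bnip3, chr1:203155044-203155073, minus strand: gcgcacgcgccgCACGTGccacacgcgccc
The matches began 172 and 96 bases before the start in Flt1, 228 in Flt4, 61 in Tie1, 169 in Vash1, 54 in Nos3 and 99 in Bnip3. Arnt also held AGGAAG on the opposite strand, at 189 and 175 bases before the start, and Foxo1, Pik3r1, Nck1 and Epas1 had no match to either motif. By the RefSeq gene table of the same build, the Flt1 stretches lie inside the outermost span of the gene, the Tie1 stretch lies partly inside it (23 of 30 bases), and the other 4 lie before it. Of the receptors with the AGGAAG match, Flt1 had a log2 fold change of 0.12, Flt4 of -0.65 and Tie1 of -0.32, none of which passed the test. The sign of Flt1 was not stable (-0.23 in females alone), and a link of the motif to the fold changes was not tested.

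**Figure D5:**
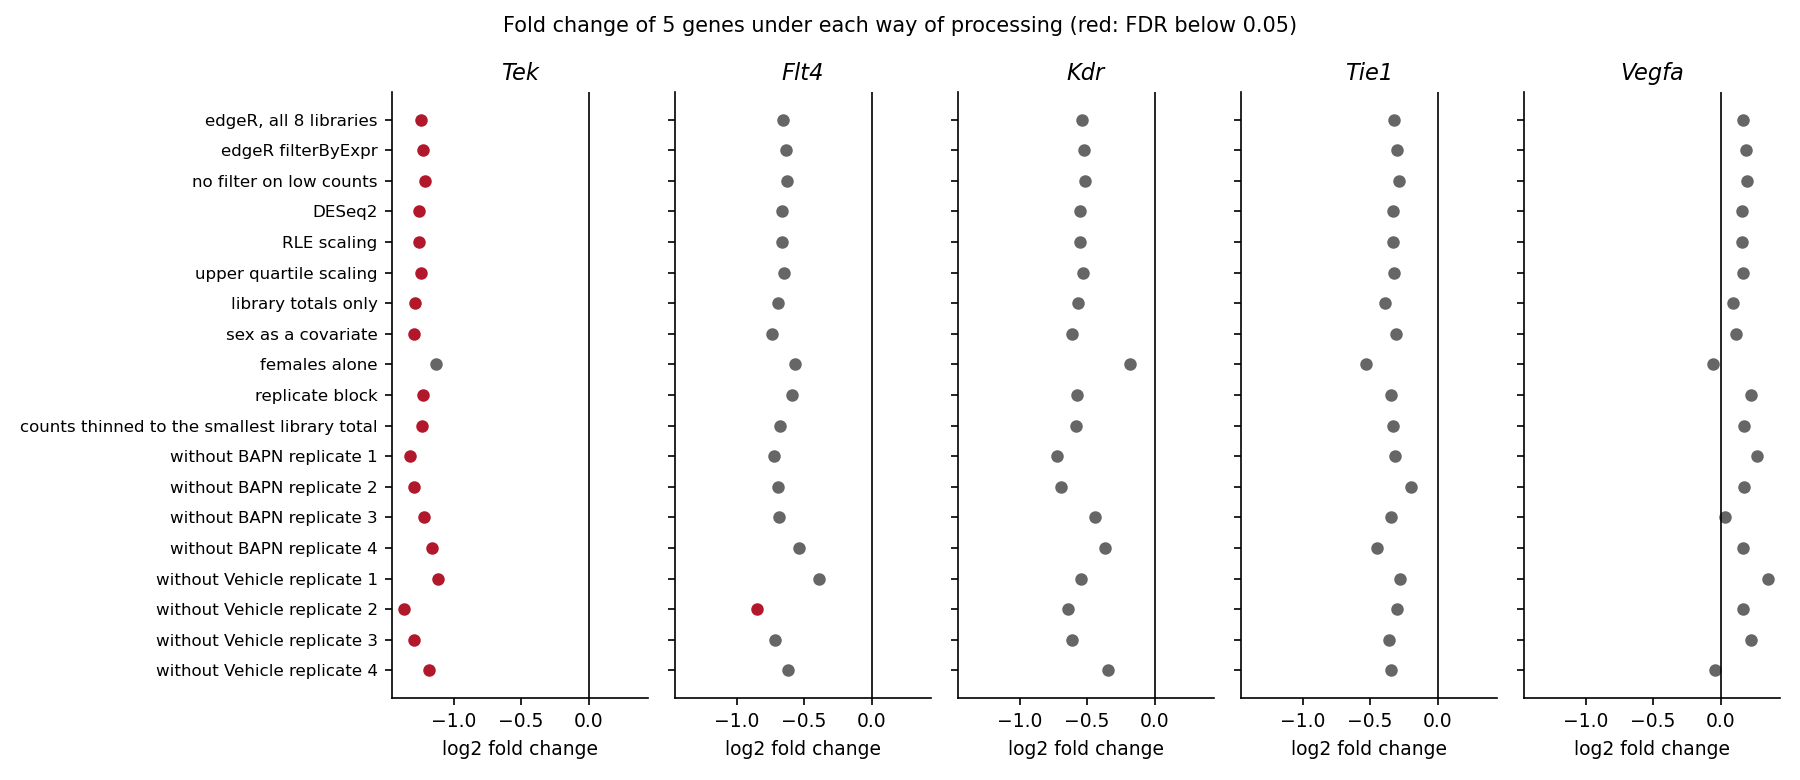
Log2 fold change (x axis) of Tek, Flt4, Kdr, Tie1 and Vegfa in the fit on all 8 libraries (top) and in 18 alternatives, among them each library left out in turn. Red points have an FDR below 0.05: Tek is red in all but the fit of females alone (-1.13, FDR 0.078), Flt4 is red without Vehicle 2 (-0.85), and Vegfa crosses 0.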

How the data were processed

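The authors extracted total RNA from outflow veins, depleted ribosomal RNA, sequenced stranded libraries and deposited whole-number counts of reads per Ensembl gene for each rat, without normalization. The submitters' processing notes name bcl2fastq 2.17, Trim Galore and STAR. The counter, its strand setting and the genome build are not given in the sources used here. No label names a batch, and libraries of a group differed by more than counting noise.

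Group, replicate number and sex came from the labels. The groups were compared with edgeR 4.0.16 (TMM, quasi-likelihood test, no covariate; R 4.3.3) on the 11682 genes whose base mean (DESeq2 1.42.0) reached 100. FDR values follow Benjamini-Hochberg across those genes. Standard errors and 95% intervals came from limma 3.58.1 (voom), and log2 CPM used a prior count of 2. The steps were tested on simulated counts. The p-values measure the spread between these rats. All 10 genes are named, and from each list up to 4 called genes with the highest mean log2 CPM plus defining markers. Acta2, Tagln and the pathway genes given as not passing were picked with their values in view. The endothelial markers were also used without Vwf, an alternative chosen after seeing the data. The genes and lists were chosen with earlier results of these data known. Ccbe1, Hspg2, Adamts3 and Car9 were not analysed here.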

Additional observations from a re-analysis of the deposited data

How the results depend on the processing

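Depth differed between the groups. Thinning all libraries to the smallest total left Tek at -1.23, which does not separate depth from treatment. The number of genes called was 1957 with all libraries, 3202 with DESeq2, 930 with sex as a covariate, 89 in females alone, and 397 to 2215 with 1 rat left out. The count for the VEGF and angiopoietin genes was 0 in females alone (3 at an unadjusted p under 0.05, edgeR) and 1 to 2 with 1 rat left out, and 1 under each other alternative. The count for the pathway lists was 10 with all libraries, 16 with DESeq2, 3 with sex as a covariate, 0 in females alone (13 at an unadjusted p under 0.05, edgeR) and 2 to 13 with 1 rat left out. The cause of these differences was not tested. Scaling by library totals only moved the lower share of called genes from 55.2% to 69.7%.

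With the replicate number as a block (replicate block), 556 genes and 2 pathway genes were called, and Tek was at -1.23 (FDR 0.041). No label links same-numbered libraries beyond the number, although those numbered 1, 2 and 4 also share the sex of the rat. Their residual correlations over all 4 numbers were between -0.265 and 0.269.

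4 genes with a fold change near 0 changed sign. Vegfb was at -0.0018 with DESeq2 and with RLE scaling, -0.071 with library totals only, -0.36 in females alone, -0.0079 with the replicate block, -0.020 after thinning and -0.19 to 0.13 with 1 rat left out. Angpt2 was at 0.0070 with filterByExpr, 0.018 without a filter, 0.0022 with upper quartile scaling, 0.32 in females alone and -0.28 to 0.27 with 1 rat left out. Vegfa was at -0.056 in females alone and -0.042 to 0.35 with 1 rat left out, and Flt1 at -0.23 and -0.022 to 0.31.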

Other observations

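The effect of BAPN in males and females was compared by an interaction term in edgeR, with 1 BAPN male whose spread is assumed to be that of the other 3 combinations of sex and group. With a single rat in that arm, the values say little about whether the sexes differed. The FDR of each of the 10 genes was 0.265 or more. For Flt1 (unadjusted p 0.0076, FDR 0.265) females averaged 126 CPM in the BAPN group and 148 CPM in the vehicle group, while the BAPN male was at 126 CPM and the vehicle males averaged 83.4 CPM. For Kdr (unadjusted p 0.036, FDR 0.376) females averaged 46.2 and 52.4 CPM in the BAPN and vehicle groups, and the BAPN male was at 23.9 CPM beside 65.9 CPM in the vehicle males. For Vegfb (unadjusted p 0.032, FDR 0.367) females averaged 43.8 and 56.3 CPM, and the BAPN male was at 68.1 CPM beside 42.8 CPM in the vehicle males.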
